A study of Mus musculus with 18 samples.

Results

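The BCL-2 family decides at the mitochondrial outer membrane whether a cell lives or dies, and 10 of its genes were followed here in thymocytes that had just been positively selected. They were chosen by name and found in the count files by Entrez GeneID: the survival genes Bcl2, Bcl2l1 (BCL-xL) and Mcl1, the BH3-only genes Bcl2l11 (BIM), Bbc3 (PUMA), Pmaip1 (NOXA), Bad and Bid, and the effectors Bax and Bak1. All 10 were among the 27179 genes counted, and all 10 passed the expression filter that left 12798 genes for testing. RNA was sequenced from CD69+ thymocytes sorted by surface MHC I into an MHC I low and an MHC I high fraction, called here the earlier and the later stage. Each of 9 mice gave both fractions, with 3 mice per genotype and 18 samples in 6 groups. WT mice were labelled wild type, and the sources used here do not say whether those sequenced carried the Cre transgene, so an effect of Cre itself cannot be told apart from that of the deletion in the comparisons of Hoil ΔCd4 with WT. Hoil ΔCd4 mice lacked the promoter and the first exons of Rbck1, which encodes HOIL-1, wherever a Cre recombinase driven by Cd4 had been expressed, so the loss began in double-positive thymocytes. Sharpin cpdm mice carried the spontaneous cpdm mutation of Sharpin in all of their cells and throughout T-cell development. HOIL-1 and SHARPIN are subunits of the linear ubiquitin chain assembly complex (LUBAC), whose catalytic subunit is HOIP. The cpdm mutation arose in C57BL/Ka mice and had been crossed 2 times to C57BL/6, so the mutation and residual strain background cannot be told apart in the Sharpin cpdm comparisons. Mice of both sexes were used, although all WT mice were female by Xist RNA. The ages of the mice sequenced were not given in the sources used here.

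In this family, BCL-2, BCL-xL and MCL-1 hold BAX and BAK in check, and BH3-only proteins set them free by occupying the survival proteins and in part by activating BAX and BAK directly. BIM and PUMA bind all of the survival proteins, BAD binds BCL-2 and BCL-xL but not MCL-1, and NOXA binds MCL-1 and A1. In the thymus, BIM with PUMA mediates the death of strongly self-reactive cells, BCL-xL sustains double-positive cells, BCL-2 sustains single-positive cells, and MCL-1 is needed throughout. Much of this control lies in the proteins, whose stability and binding were not measured.

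The libraries held 10577966 to 16266128 counts assigned to genes, with a median of 13979793. Levels are given as CPM, counts scaled to a TMM-adjusted library total of 1e+06. Rbck1 was at 217 to 229 CPM in WT cells of the earlier stage and at 0.271 to 0.779 CPM in Hoil ΔCd4 cells, and at the later stage at 263.5 to 268 against 3.72 to 8.94 CPM. Sharpin RNA was lower in Sharpin cpdm than in WT cells, with means of 71.5 against 91.3 CPM at the earlier and 73.8 against 89.7 CPM at the later stage. H2-K1, a classical MHC I gene, rose between the stages by 3.21 to 3.28 on the log2 scale in the 3 genotypes, and Cd69 fell by 1.59 to 1.76. The 8 T-cell markers summed to 3990 to 4710 CPM in every sample. The B-cell, myeloid, thymic epithelial and erythroid marker lists each summed to at most 11.9 CPM, the list for NK and γδ T cells to 10.8 to 41.9 CPM, and Ncr1 was at 0 throughout. By Xist, all 3 WT mice were female and each mutant group held 1 female and 2 males. Sex is therefore partly confounded with genotype in the comparisons with WT. One male Hoil ΔCd4 mouse, mouse 2, had 64.6 CPM of Xist in its MHC I high library against 0.606 CPM in its MHC I low library. That MHC I high library also had the most Rbck1 of its group, 8.94 CPM against 3.72 and 4.51 CPM in mice 1 and 3. The source of these reads was not tested. Because whole sorted populations were measured, a lower share of expressing cells and less RNA per cell cannot be told apart.

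Per kilobase of exon, the scale on which genes can be compared, Mcl1 was the most abundant of the 10 transcripts in each of the 6 groups and Pmaip1 the least. In WT mice at the earlier stage Mcl1 averaged 187 CPM per kb. Bcl2l11 followed at 103, then Bax at 73.7 and Bcl2 at 58.8 CPM per kb. Bak1 stood at 32.5, Bcl2l1 at 26.1 and Bbc3 at 15 CPM per kb, and Bid, Bad and Pmaip1 came last at 10.2, 6.04 and 1.1 CPM per kb. No 2 neighbours in that order overlapped between mice. In WT mice at the later stage Mcl1 averaged 210.0 CPM per kb and Bax was next at 61.9. Bcl2 at 42 and Bcl2l11 at 40.4 CPM per kb overlapped there, as did Bid with Bbc3 and Bbc3 with Bad at 7.11 to 9 CPM per kb. The BIM transcript therefore lay above that of BCL-2 at the earlier stage, and the 2 were not separated at the later one.

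**Figure D1:**
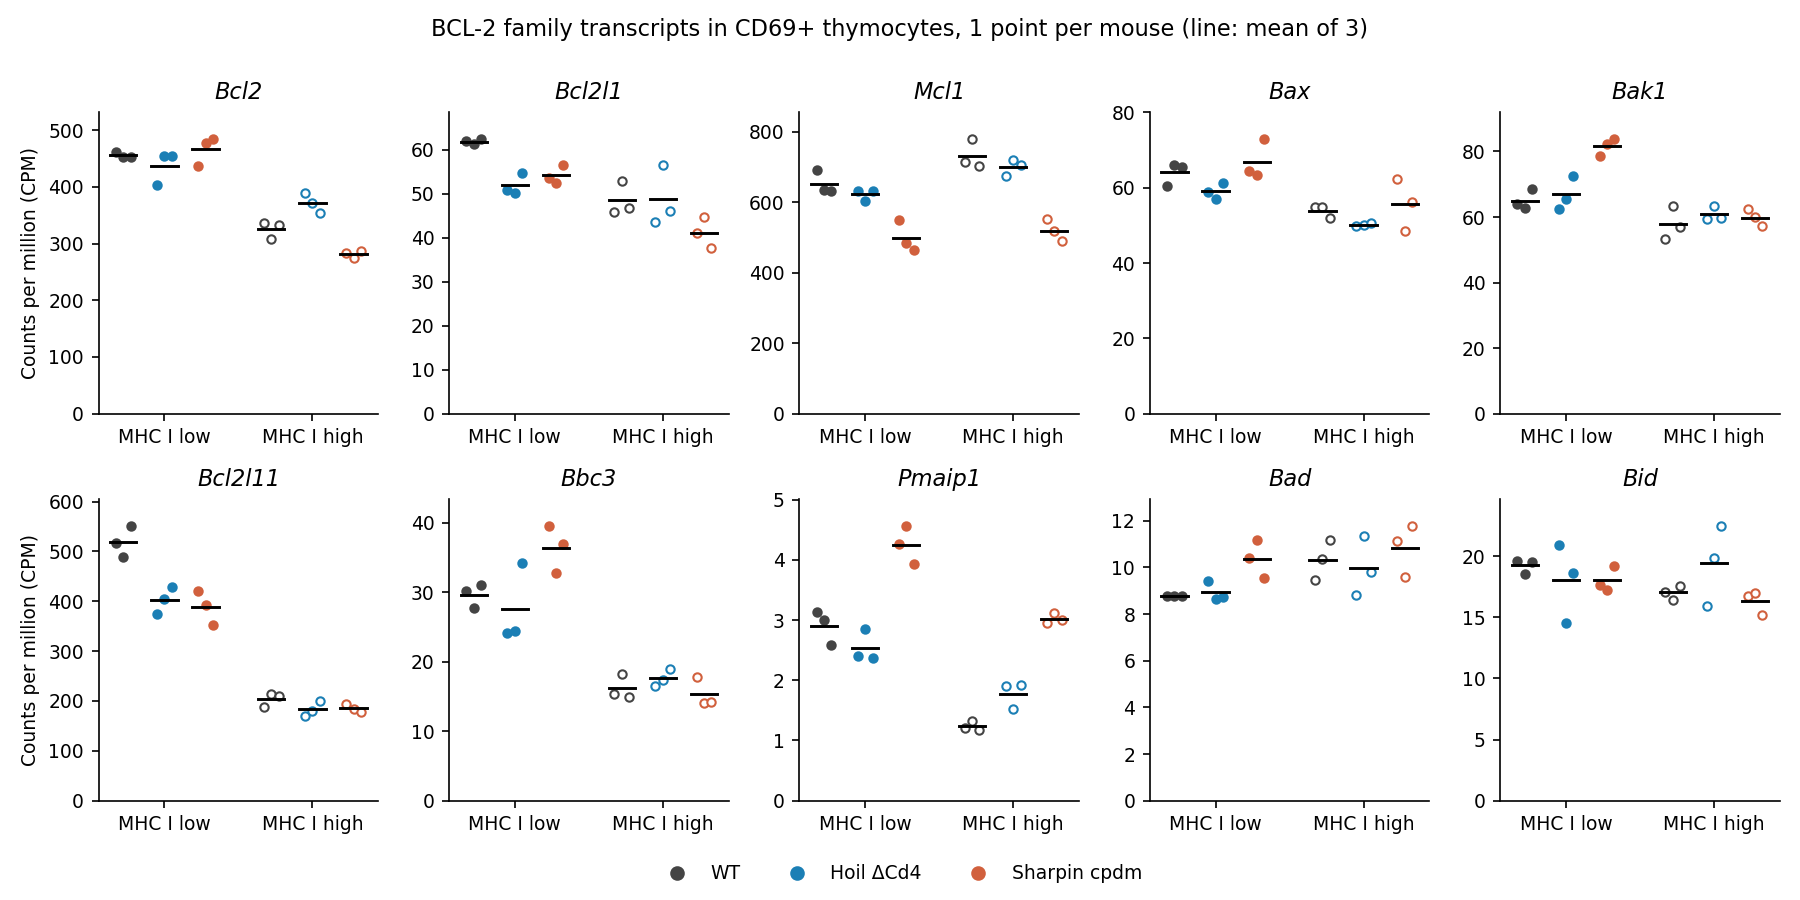
Counts per 1e+06 (CPM) of the 10 transcripts in each sample, with filled points for MHC I low and open points for MHC I high cells, colours for genotype and a line at the mean of 3 mice; each y axis starts at 0 and has its own range. Bcl2l11 falls from 488 to 551 CPM at the earlier stage in WT mice to 187 to 214 CPM at the later stage, and Mcl1 lies below WT and Pmaip1 above WT in all 6 Sharpin cpdm samples.

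Against WT, 0 to 3 of the 10 transcripts were called in each comparison. A transcript was called when limma's Benjamini-Hochberg adjusted p over all 12798 genes was below 0.05. In Hoil ΔCd4 mice 1 of the 10 was called at the earlier stage, Bcl2l11, which was lower, where 0.985% of all genes were called. In the same mice limma called 0 of the 10 at the later stage, where 6.65% of all genes were called. There, 3 had an unadjusted p below 0.05, against 22.0% of all genes. By other tools, edgeR's quasi-likelihood test called 0 and DESeq2 called 1, Bcl2. In Sharpin cpdm mice 3 were called at the earlier stage, Mcl1 and Bcl2l11 lower and Bak1 higher, where 12.2% of all genes were called. Another 3 calls were made at the later stage of Sharpin cpdm mice, Mcl1 and Bcl2 lower and Pmaip1 higher, where 8.62% of all genes were called. The medians of the 10 log2 differences in these 4 comparisons were -0.10, 0.08, 0.04 and -0.06, and those of all genes lay between -0.00141 and 0.00839. Separation of all mutant from all WT samples was common with 3 mice per group: it held for 2, 3, 7 and 4 of the 10 in the same 4 comparisons, beside 14.7%, 19.6%, 30.0% and 22.3% of all genes. Both mutants were compared with the same WT samples, so their differences from WT are not independent of each other.

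**Figure D2:**
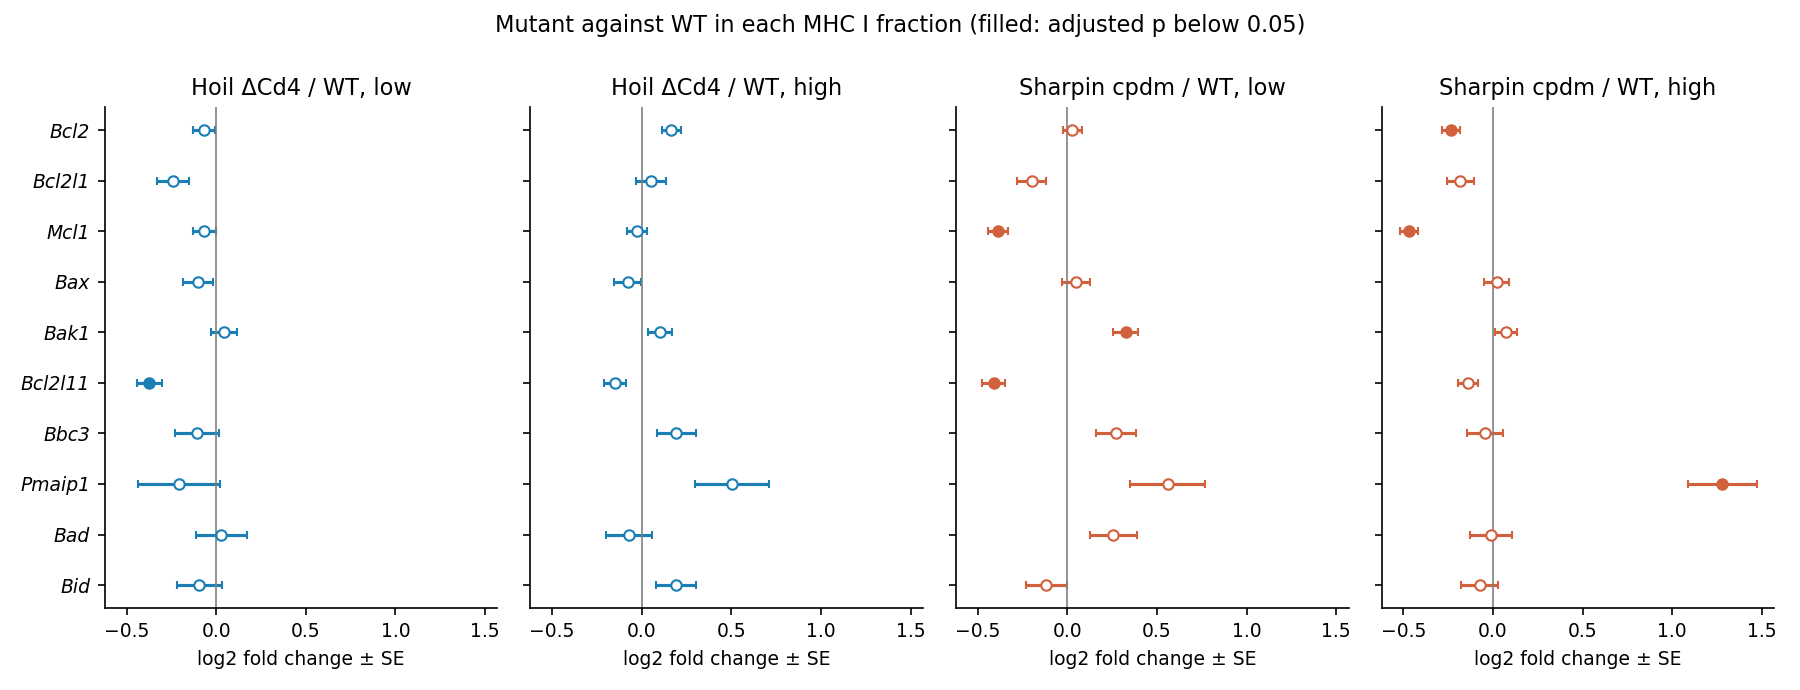
Fitted log2 fold change (x axis, with its standard error as the bar) of each of the 10 transcripts in Hoil ΔCd4 or Sharpin cpdm against WT cells, in the MHC I low and MHC I high fractions; filled points have an adjusted p below 0.05. In Hoil ΔCd4 cells the only filled point is Bcl2l11 in the low fraction at -0.37, and in Sharpin cpdm cells Mcl1 is filled in both fractions at -0.39 and -0.47.

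Bcl2l11 encodes BIM, the BH3-only protein most closely tied to the death of thymocytes. The gene lies on chromosome 2, at 128126038 to 128162547 of GRCm38.p6 (the patch release of mm10), and shares part of its span with Acoxl, which reached at most 12.4 CPM. The 250 bases before 1 annotated start of Bcl2l11, on the plus strand of chr2:128125788-128126037, are printed because this member was lower at the earlier stage of both mutants. Those before 1 annotated start of Mcl1, on the plus strand of chr3:95658471-95658720, which lie within the annotated span of the gene (95656944 to 95663179), are printed because Mcl1 was lower at both stages of Sharpin cpdm cells. Both come from RefSeq on GRCm38.p6. Capitals mark, in the first, the letters GTAAACA, a forkhead box, and in the second an NF-κB form (GGG, any 3 bases, then TTCC) read on the minus strand.
Bcl2l11: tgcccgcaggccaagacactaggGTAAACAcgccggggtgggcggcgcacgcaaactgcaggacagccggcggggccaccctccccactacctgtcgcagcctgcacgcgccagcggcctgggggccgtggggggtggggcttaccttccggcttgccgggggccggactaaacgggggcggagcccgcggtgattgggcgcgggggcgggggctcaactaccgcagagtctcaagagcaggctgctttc
Mcl1: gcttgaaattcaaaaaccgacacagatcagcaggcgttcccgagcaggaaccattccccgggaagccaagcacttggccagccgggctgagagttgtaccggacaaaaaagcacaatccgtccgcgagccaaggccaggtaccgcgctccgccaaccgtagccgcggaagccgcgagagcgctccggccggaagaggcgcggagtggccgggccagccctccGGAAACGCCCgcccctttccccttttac

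The forkhead match began 227 bases before this start of Bcl2l11, and the NF-κB match 28 bases before this start of Mcl1, where its end overlaps a GC box. Windows of 250 bases were searched on both strands for 9 of the 10 genes, 15 windows in all. The forkhead letters were in 2 of these, 1 each of Bcl2l11 and Bbc3, against 3.17% of all 32851 RefSeq windows. The NF-κB letters were in 3, 1 each of Mcl1, Bcl2l1 and Bbc3, against 4.65% of all windows. A STAT box (TTCNNNGAA) was in 0 of the 15, against 7.02%, and a GC box (GGGCGG) was in 10, against 32.7%. The window of another annotated start of Bcl2l11, from 128127325, held neither the forkhead nor the NF-κB letters and was not printed for that reason. Which matches to mark was chosen after they had been seen, and a match is a description of the sequence only.

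The Bcl2l11 transcript was at 517, 488 and 551 CPM in WT mice 1, 2 and 3 at the earlier stage. Hoil ΔCd4 samples read 374, 404 and 429 CPM, and Sharpin cpdm samples 421, 392 and 353 CPM. All 6 mutant samples lay below all 3 WT samples, and the mutants overlapped each other. The difference from WT was -0.37 ± 0.07 (log2 ± SE, adjusted p = 0.00234) for Hoil ΔCd4, or 22.7% less, and -0.41 ± 0.06 (adjusted p = 4.1e-05) for Sharpin cpdm, or 24.8% less. Both calls were kept in each of 21 alternative analyses. Hoil ΔCd4 less Sharpin cpdm was 0.04, with a 95% interval from -0.11 to 0.18. At the later stage the samples read 187, 214 and 209 CPM in WT, and ranged over 169.6 to 199 CPM for Hoil ΔCd4 and 178 to 194.5 CPM for Sharpin cpdm mice, so each mutant overlapped WT. Neither difference was called there (-0.15, adjusted p = 0.149, and -0.14, adjusted p = 0.133).

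Pmaip1, on chromosome 18, encodes NOXA and had the largest fold difference between genotypes among the 10. At the later stage it was at 1.21, 1.32 and 1.17 CPM in WT, while Hoil ΔCd4 samples read 1.90, 1.51 and 1.92 CPM and Sharpin cpdm samples 2.94, 3.11 and 3.00 CPM. The 3 genotypes did not overlap. The transcript was rare, and these values rest on 15 to 21 reads per WT sample and 42 to 49 per Sharpin cpdm sample. Sharpin cpdm cells had 1.28 ± 0.19 more on the log2 scale than WT cells (adjusted p = 2.86e-05), or 2.43-fold, and this call was kept in each of 21 alternatives. The difference of Hoil ΔCd4 cells from WT was 0.50 ± 0.21 (adjusted p = 0.144). WT samples of the earlier stage ranged from 2.58 to 3.14 CPM, Hoil ΔCd4 from 2.38 to 2.85 CPM and Sharpin cpdm from 3.93 to 4.56 CPM. Sharpin cpdm lay above WT without overlap, by 0.56 ± 0.21, which was not called (adjusted p = 0.0786).

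Bbc3 encodes PUMA, a target of p53. It was at 30.1, 27.8 and 31.1 CPM in WT, while Hoil ΔCd4 samples read 24.1, 24.4 and 34.3 CPM and Sharpin cpdm samples 39.5, 32.7 and 37 CPM at the earlier stage. Sharpin cpdm lay above WT without overlap, by 0.27 ± 0.11, which was not called (adjusted p = 0.113). All 3 genotypes overlapped at the later stage, between 14.1 and 18.9 CPM. Bad, whose product neutralises BCL-2 and BCL-xL, ranged from 8.65 to 11.2 CPM over all samples of the earlier and from 8.81 to 11.8 CPM over those of the later stage. Part of Bad overlaps Gpr137, which reached 21.5 CPM, so reads in the shared part are uncertain. Bid, whose product is cut by caspase-8 and links death receptors to mitochondria, ranged from 14.5 to 20.9 CPM and from 15.2 to 22.5 CPM at the same stages. Neither Bad nor Bid was called in any comparison of genotypes.

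Mcl1 set the mutants apart at both stages. Its product is short-lived and is bound by NOXA and BIM. At the earlier stage WT samples were at 690.4, 634 and 631 CPM, Hoil ΔCd4 samples at 631, 604 and 632 CPM and Sharpin cpdm samples at 549, 484 and 465 CPM. The later stage gave 713, 779 and 703 CPM for WT, 675, 721 and 706 CPM for Hoil ΔCd4 and 551, 518 and 488 CPM for Sharpin cpdm. Every Sharpin cpdm sample lay below every other sample of its stage, while Hoil ΔCd4 overlapped WT. Against WT, Mcl1 in Sharpin cpdm cells fell by 0.39 ± 0.06 on the log2 scale at the earlier stage (adjusted p = 2.1e-05) and by 0.47 ± 0.05 at the later (adjusted p = 1.86e-07), changes of -23.6% and -27.8%. Hoil ΔCd4 differed from WT by -0.07 and -0.03, with 95% intervals from -0.19 to 0.06 and from -0.14 to 0.09.

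Bcl2, the survival gene of single-positive cells, was not called at the earlier stage, where WT samples ranged from 452 to 462 CPM, Hoil ΔCd4 from 403 to 455 CPM and Sharpin cpdm from 437 to 484 CPM. At the later stage it was at 336, 307 and 333 CPM in WT, with Hoil ΔCd4 samples at 389, 372 and 355 CPM and Sharpin cpdm samples at 283, 275 and 287 CPM. Hoil ΔCd4 lay above WT and Sharpin cpdm below, with no overlap. Sharpin cpdm fell by 0.23 ± 0.05 against WT (adjusted p = 0.00204), a call that did not survive leaving out WT mouse 1 (adjusted p = 0.0806), WT mouse 3 (0.173) or Sharpin cpdm mouse 2 (0.0536), or dropping the sample weights (0.0518). For Hoil ΔCd4 the difference was 0.17 ± 0.05 (adjusted p = 0.0593), and DESeq2 called it (adjusted p = 0.0292). Bcl2l1, which encodes BCL-xL, ranged from 61.3 to 62.5 CPM in WT at the earlier stage, from 50.3 to 54.8 CPM in Hoil ΔCd4 and from 52.5 to 56.5 CPM in Sharpin cpdm mice. Both mutants lay below WT without overlap, and neither difference was called, at -0.24 ± 0.09 (adjusted p = 0.256) and -0.20 ± 0.08 (adjusted p = 0.11). Later-stage WT samples lay between 46 and 53 CPM and Sharpin cpdm samples between 37.7 and 44.8 CPM, again apart and not called (adjusted p = 0.129).

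Of the effectors, which form the pores of the outer membrane, only Bak1 was called in a comparison of genotypes. WT samples read 63.9, 62.8 and 68.4 CPM of Bak1 at the earlier stage, Hoil ΔCd4 samples 62.6, 65.4 and 72.7 CPM and Sharpin cpdm samples 78.7, 82.2 and 83.8 CPM. The Sharpin cpdm samples were above all others, by 0.32 ± 0.07 over WT (adjusted p = 0.00149), or 25.2%, and this call was kept in each of 21 alternatives. All 3 genotypes overlapped at the later stage, between 53.3 and 63.3 CPM. Bak1 shares part of its span with Ggnbp1, which reached 7.38 CPM. Bax ranged from 57.1 to 72.9 CPM at the earlier and from 48.5 to 62.2 CPM at the later stage, and its fitted differences from WT lay between -0.10 and 0.05 in the 4 comparisons.

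The mutants were also compared directly, in the same fit over all 6 groups, so the WT samples bear on its errors but not on the differences. At the earlier stage 3 of the 10 were called, where 9.48% of all genes were: Hoil ΔCd4 cells had more Mcl1 (0.32 ± 0.06, adjusted p = 0.00132), less Pmaip1 (-0.77 ± 0.24, adjusted p = 0.0382) and less Bak1 (-0.28 ± 0.08, adjusted p = 0.0167) than Sharpin cpdm cells. Bbc3 differed by -0.38 ± 0.13 (adjusted p = 0.055) and was called by edgeR's quasi-likelihood test (0.0282) and DESeq2 (0.0248), without sample weights (0.0226), with mouse number as a block (0.0256) and without Hoil ΔCd4 mouse 3 (-0.55, 0.0108). Again 3 were called at the later stage, where 6.73% of all genes were: Hoil ΔCd4 cells had more Bcl2 (0.40 ± 0.05, adjusted p = 1.03e-05), more Mcl1 (0.44 ± 0.06, adjusted p = 4.04e-06) and less Pmaip1 (-0.78 ± 0.21, adjusted p = 0.0222). The Bcl2 and Mcl1 calls were kept in all 21 alternatives. The Bak1 call did not survive leaving out Hoil ΔCd4 mouse 1 or 2 or Sharpin cpdm mouse 2 or 3 (adjusted p = 0.0541 to 0.11). The Pmaip1 call was lost at the earlier stage on leaving out any mouse but WT mouse 1 or 3 (adjusted p = 0.0504 to 0.159), and at the later stage without mouse 2 or 3 of either mutant (adjusted p = 0.0724 to 0.193), by DESeq2 (0.0889) and with only the compared groups in the fit (0.0622). Without Hoil ΔCd4 mouse 1, Bcl2l1 (0.29) and Bid (0.36) were also called at the later stage (adjusted p = 0.0407 for each).

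Markers of other thymocyte states also differed between the genotypes. At the earlier stage the 6 double-positive markers summed to 361 to 374 CPM in WT, 397 to 440.0 CPM in Hoil ΔCd4 mice and 291 to 316 CPM in Sharpin cpdm samples, and the 4 proliferation markers to 91.2 to 108, 93.8 to 136 and 58.2 to 78 CPM. The later double-positive sums were 214 to 234, 291 to 463 and 254 to 347 CPM, and the proliferation sums 424 to 539, 674 to 857 and 593 to 873 CPM, in the same order. The 5 markers of mature single-positive cells, which include Il7r, summed to 628 to 651, 532 to 583 and 750.0 to 771 CPM at the earlier stage, without overlap, and to 1120.0 to 1180.0, 950.0 to 975 and 1080.0 to 1190.0 CPM at the later. Of the regulatory T-cell markers Foxp3, Il2ra and Ctla4 reached at most 6.95, 20.5 and 22.2 CPM in cells sorted to exclude CD25+ cells, and Ikzf2, at 347 to 1060.0 CPM, made up nearly all of that list's sum, which is therefore not given as a measure of those cells. The part of these markers in the results was not tested. With Xist as a covariate every call of the 6 genotype comparisons was kept. No WT mouse was male, so that fit estimates the part of sex mostly from the mutant mice. Sex and genotype therefore cannot be fully told apart in the comparisons with WT.

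Between the stages the calls were mostly decreases. In WT mice 9 of the 10 were called, where 54.4% of all genes were: 7 were lower (26.8% of all genes) and 2 higher (27.5%). In Hoil ΔCd4 mice 5 were called, where 45.3% of all genes were: 4 were lower (21.7%) and 1 higher (23.5%). For Sharpin cpdm mice the count was 7, where 54.6% of all genes were: 7 were lower (27.4%) and 0 higher (27.2%). The medians of the 10 log2 changes were -0.32, -0.19 and -0.40, beside medians of all genes between -0.00423 and 0.000987.

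Bcl2l11 was lower at the later stage in 9 of 9 mice and fell by 1.35 ± 0.05 on the log2 scale in WT (adjusted p = 6.99e-20), 1.13 ± 0.06 in Hoil ΔCd4 mice (adjusted p = 1.9e-15) and 1.08 ± 0.05 in Sharpin cpdm mice (adjusted p = 5.87e-17). Bbc3 was lower in 9 of 9 mice and fell by 0.93 ± 0.09, 0.63 ± 0.11 and 1.25 ± 0.10 in the same order. Pmaip1 was also lower in 9 of 9 and fell by 1.21 ± 0.17 in WT (adjusted p = 5.72e-07) and 0.49 ± 0.18 in Sharpin cpdm mice (adjusted p = 0.0223). Its change of -0.50 ± 0.21 in Hoil ΔCd4 mice was not called (adjusted p = 0.0541), and the Sharpin cpdm call was lost on leaving out any of the 3 Sharpin cpdm mice (adjusted p = 0.0564 to 0.159), by DESeq2 (0.0866) and with mouse number as a block (0.0636). In WT mice these 3 BH3-only genes had the largest falls of the 10. Bad had a WT call (0.27 ± 0.11, adjusted p = 0.0361) that was lost without the replicate block (adjusted p = 0.0553), on leaving out any WT mouse (0.0944 to 0.393), and by edgeR's quasi-likelihood test (0.14) and DESeq2 (0.187). Bid was called in no genotype, but in Hoil ΔCd4 mice its change of 0.12 became 0.36 and was called without mouse 1 (adjusted p = 0.0234).

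Among the survival genes, Bcl2 was lower at the later stage in 9 of 9 mice and Mcl1 higher in 9 of 9. Bcl2 fell by 0.47 ± 0.04 in WT, 0.24 ± 0.06 in Hoil ΔCd4 mice and 0.73 ± 0.05 in Sharpin cpdm mice, and the Hoil ΔCd4 call did not survive leaving out mouse 3 (adjusted p = 0.0581). Mcl1 rose by 0.14 ± 0.05 in WT (adjusted p = 0.0148) and 0.17 ± 0.06 in Hoil ΔCd4 mice (adjusted p = 0.0141), and the calls were lost on leaving out WT mouse 2 (0.10, adjusted p = 0.114) or Hoil ΔCd4 mouse 2 (0.13, 0.166) or 3 (0.18, 0.0735). In Sharpin cpdm mice the Mcl1 change was 0.05 ± 0.05 (adjusted p = 0.358). Bcl2l1 fell by 0.38 ± 0.07 in WT and 0.36 ± 0.07 in Sharpin cpdm mice, and in Hoil ΔCd4 mice its change was -0.09 ± 0.08 (adjusted p = 0.415), which became -0.24 and was called without mouse 2 (adjusted p = 0.0389).

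Bax fell by 0.26 ± 0.06 in WT, 0.24 ± 0.08 in Hoil ΔCd4 mice and 0.29 ± 0.07 in Sharpin cpdm mice and was lower in 9 of 9 mice. The calls did not survive leaving out WT mouse 3 (adjusted p = 0.0735) or Hoil ΔCd4 mouse 1 or 3 (0.0587 and 0.0971). Bak1 fell by 0.44 ± 0.06 in Sharpin cpdm mice (adjusted p = 1.09e-07). Its WT change of -0.19 ± 0.06 was called (adjusted p = 0.0037) although the stages overlapped, and the call was lost without WT mouse 1 (0.178) or 3 (0.221) and by edgeR's quasi-likelihood test (0.0566) and DESeq2 (0.069). In Hoil ΔCd4 mice the Bak1 change was -0.13 ± 0.07 (adjusted p = 0.106). All 4 proliferation markers rose between the stages in each genotype, with a median log2 change of 2.31 in WT, 2.64 in Hoil ΔCd4 mice and 3.45 in Sharpin cpdm mice, and their part in these changes was not tested.

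**Figure D3:**
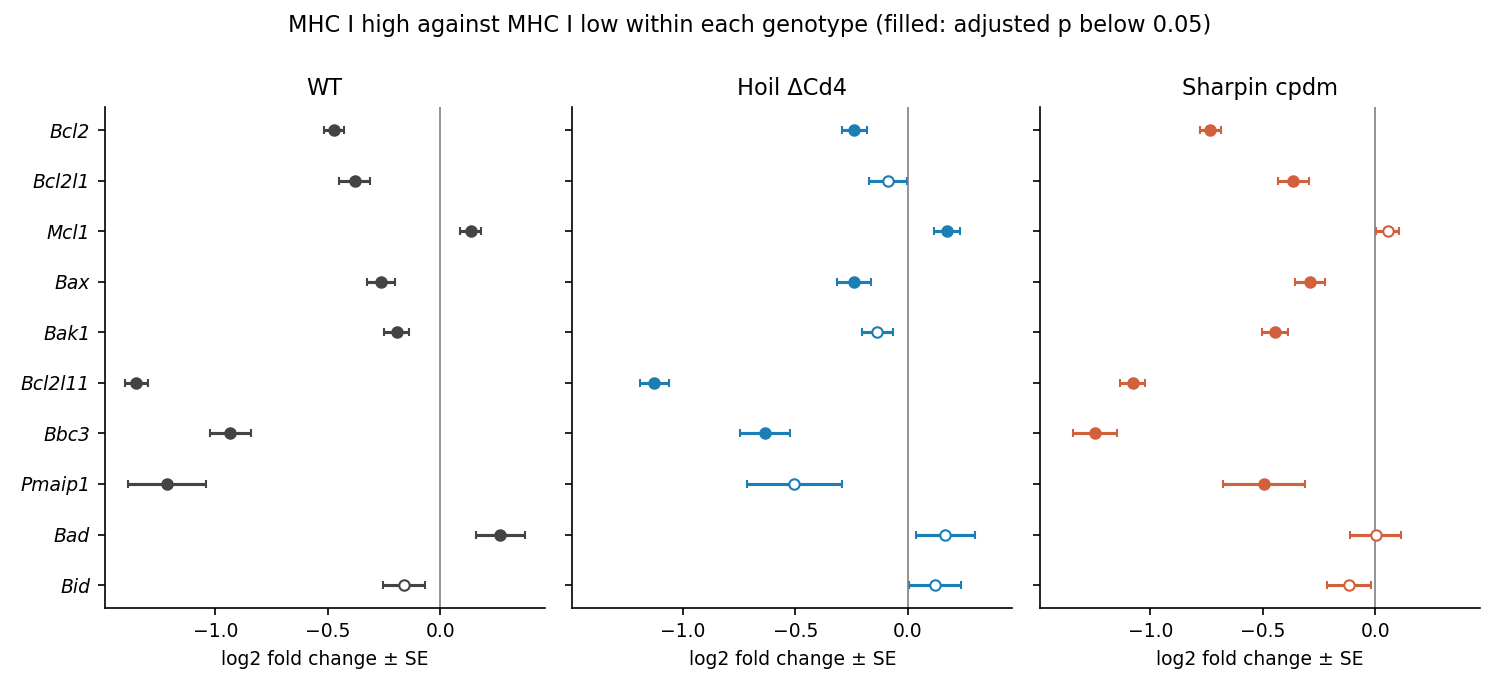
Fitted log2 fold change of each of the 10 transcripts in MHC I high against MHC I low cells (x axis, with its standard error as the bar) within WT, Hoil ΔCd4 and Sharpin cpdm mice; filled points have an adjusted p below 0.05. Bcl2l11 lies between -1.35 and -1.08 in the 3 genotypes, and Mcl1 is the only transcript with a filled point to the right of 0 in both WT and Hoil ΔCd4 mice.

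Whether the change between stages itself differed between a mutant and WT was tested as an interaction. For Hoil ΔCd4 limma called 0 of the 10, where 0.398% of all genes were called. There, 5 had an unadjusted p below 0.05, against 10.5% of all genes, and edgeR's quasi-likelihood test and DESeq2 also called 0. For Sharpin cpdm 2 were called, where 3.13% of all genes were. Bcl2 changed by -0.46, -0.56 and -0.44 on the log2 scale in WT mice 1, 2 and 3 and by -0.63, -0.80 and -0.76 in the Sharpin cpdm mice, which do not overlap, and the fitted difference was -0.26 ± 0.07 (adjusted p = 0.021). Bcl2l11 changed by -1.47, -1.19 and -1.4 in the WT mice and by -1.11, -1.09 and -0.99 in the Sharpin cpdm mice, also without overlap, and the fitted difference was 0.27 ± 0.08 (adjusted p = 0.0418). Without the replicate block the adjusted p was 0.0712 for Bcl2 and 0.157 for Bcl2l11. By edgeR's quasi-likelihood test it was 0.229 and 0.255, and without WT mouse 3 it was 0.213 for each, so neither call held throughout.

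Ratios between survival and BH3-only transcripts, on the per-kilobase scale, summarise these values within a sample. At the earlier stage the ratio of Bcl2 to Bcl2l11 was 0.58, 0.602 and 0.534 in WT, while Hoil ΔCd4 samples gave 0.699, 0.732 and 0.69 and Sharpin cpdm samples 0.675, 0.791 and 0.891. All mutant samples were above all WT samples. At the later stage it ranged from 0.935 to 1.17 in WT, from 1.16 to 1.49 in Hoil ΔCd4 and from 0.946 to 1.05 in Sharpin cpdm mice, and both mutants overlapped WT. The ratio of Mcl1 to Pmaip1 ranged from 161 to 186 in WT, from 161 to 202 in Hoil ΔCd4 and from 80.7 to 98.1 in Sharpin cpdm mice at the earlier stage. The later ranges were 448 to 457, 271 to 362 and 124 to 142, and the genotypes did not overlap. The ratio of Mcl1 to Bcl2l11 averaged 1.82 ± 0.146 (SD, n = 3) and 5.21 ± 0.327 at the successive stages of WT mice. It averaged 2.24 ± 0.169 and 5.55 ± 0.376 at those of Hoil ΔCd4 mice and 1.85 ± 0.0644 and 4.04 ± 0.0604 at those of Sharpin cpdm mice. At the earlier stage the Hoil ΔCd4 samples, at 2.13 to 2.44, lay above all WT (1.65 to 1.93) and Sharpin cpdm samples (1.78 to 1.90). These ratios restate the levels above and were not tested.

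**Figure D4:**
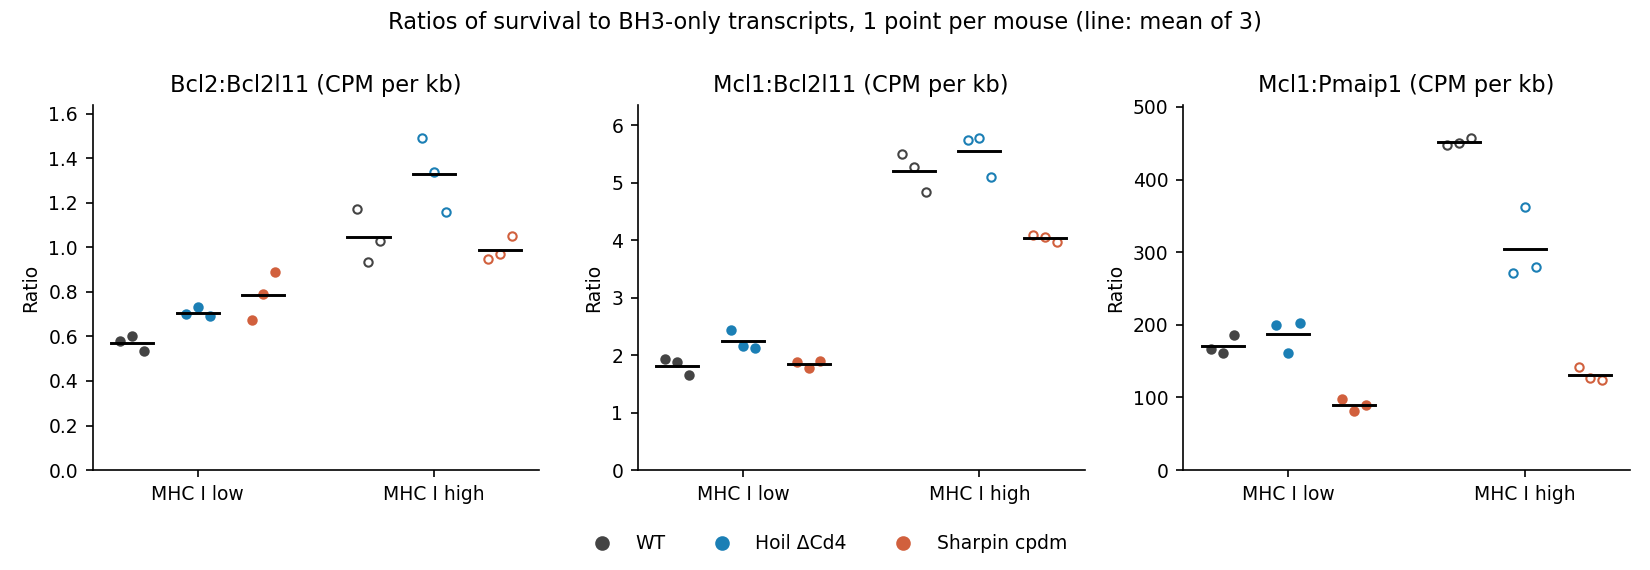
Ratios of 3 pairs of transcripts (y axes, from CPM per kilobase of exon), with filled points for MHC I low and open points for MHC I high cells, colours for genotype and a line at the mean of 3 mice. The Bcl2 to Bcl2l11 ratio has its highest values in Hoil ΔCd4 MHC I high cells at 1.16 to 1.49, and the Mcl1 to Pmaip1 ratio of Sharpin cpdm cells lies below that of WT in both fractions.

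The rest of the family was followed by a list of 15 further genes, of which 10 passed the filter. Bcl2l10, Bcl2a1a, Bok, Hrk and Bcl2l15 did not, with at most 12 reads in any sample. In Hoil ΔCd4 mice limma called 0 of the 10 against WT at the earlier stage and 2, both lower, at the later stage, where 0.985% and 6.65% of all genes were called. In Sharpin cpdm mice 2 were higher and 2 lower at the earlier stage, and 1 was higher and 2 lower at the later stage, where 12.2% and 8.62% of all genes were called. Bmf encodes a BH3-only protein tied to the cytoskeleton. It was at 22.7, 21.1 and 32 CPM in WT, while Hoil ΔCd4 samples read 33.2, 29.2 and 37.4 CPM and Sharpin cpdm samples 43.6, 56 and 56 CPM at the earlier stage. Sharpin cpdm lay above both others, by 1.04 ± 0.17 over WT (adjusted p = 0.00118), and by 0.75 ± 0.15 at the later stage (adjusted p = 0.00733). Where Bcl2l11 and Bbc3 fell between the stages, Bmf rose, by 1.15 in WT, 1.08 in Hoil ΔCd4 mice and 0.86 in Sharpin cpdm mice. Bcl2a1b and Bcl2a1d encode forms of A1, a survival protein induced by NF-κB, and are near-identical copies, so the split of reads between them is uncertain. Against WT, Bcl2a1d fell by 1.14 ± 0.19 in Hoil ΔCd4 cells of the later stage and by 0.85 ± 0.19 and 0.85 ± 0.17 in Sharpin cpdm cells of the earlier and later stages. Bcl2a1b was called lower in the same 3 comparisons. In Hoil ΔCd4 cells of the earlier stage both also lay below WT without overlap, as 14.7% of all genes were apart there, and were not called. Bcl2a1d was then at 3.27 to 4.07 against 6.26 to 6.97 CPM in WT, and Bcl2a1b at 6.72 to 8.13 against 8.90 to 13.75 CPM. Bnip3, which acts in mitophagy, was higher in Sharpin cpdm cells of the earlier stage (0.67 ± 0.22, adjusted p = 0.0445).

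Downstream of the mitochondrion few genes were called between genotypes. All 16 listed genes of the apoptosome, the caspases and their mitochondrial partners were tested. Against WT, limma called 1 of them over the 4 comparisons, in each of which 0.985% to 12.2% of all genes were called. It was Apaf1, the scaffold of the apoptosome, which was higher in Hoil ΔCd4 cells of the later stage (0.20 ± 0.06, adjusted p = 0.0425). Between the mutants, Endog, a mitochondrial nuclease, was lower in Hoil ΔCd4 cells at the earlier stage (-0.84 ± 0.27, adjusted p = 0.0469) and Vdac1, a channel of the outer membrane, higher at the later stage (0.20 ± 0.06, adjusted p = 0.0401). Between the stages of WT mice Endog rose by 0.76 ± 0.20 (adjusted p = 0.00186) and Apaf1 fell by 0.31 ± 0.05 (adjusted p = 3.08e-06).

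A list of 22 regulators of the family, which holds cytokine receptors, transcription factors, ubiquitin enzymes and kinases, had 21 tested members, since Trp73 had 0 counts. Against WT at the earlier stage 1 was higher and 3 were lower in Hoil ΔCd4 mice (0.985% of all genes called), and 2 were higher and 8 lower in Sharpin cpdm mice (12.2%). Among later-stage cells 1 was higher and 2 were lower in Hoil ΔCd4 mice (6.65%), and 2 were higher and 5 lower in Sharpin cpdm mice (8.62%). Il7r, the interleukin-7 receptor chain whose signal maintains BCL-2, differed from WT by -0.27 ± 0.06 and -0.18 ± 0.05 in Hoil ΔCd4 cells of the earlier and later stages and by 0.27 ± 0.05 and 0.26 ± 0.05 in Sharpin cpdm cells, and all 4 differences were called. Bcl2 differed from WT by -0.07 and 0.17 in Hoil ΔCd4 cells and by 0.03 and -0.23 in Sharpin cpdm cells, and only the last was called. At the later stage its signs were thus opposite to those of Il7r in both mutants. A link between the 2 transcripts was not tested. Nfkb1, which encodes an NF-κB subunit, fell by 0.30 ± 0.06 and 0.35 ± 0.06 at the earlier stage of Hoil ΔCd4 and Sharpin cpdm cells. Pim1, a kinase that phosphorylates BAD, fell by 0.60 ± 0.10 in Hoil ΔCd4 cells of the earlier stage (adjusted p = 0.000463). Dynll1, a dynein light chain that binds BIM, fell by 0.60 ± 0.09 and 0.38 ± 0.08 at the earlier and later stages of Sharpin cpdm cells. In these cells at the earlier stage Usp9x, a deubiquitinase that stabilises MCL-1, fell by 0.28 ± 0.06 (adjusted p = 0.000987) and Rel, an NF-κB subunit, by 0.57 ± 0.08 (adjusted p = 1.7e-05). At their later stage Nr4a1, which encodes NUR77 and is induced by T-cell receptor signals, fell by 0.27 ± 0.06 (adjusted p = 0.00215).

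The genes whose log2 CPM most resembled that of Bcl2l11 over all 18 samples were Kdm2b, Camk1d and Sox4 (Pearson's r = 0.987, 0.985 and 0.983). Bcl2l11 fell between the stages in all 9 mice, so these coefficients include the difference between the stages. After the mean of each fraction had been subtracted, the closest genes were Nfkb1, Tnfaip3 and Nfkbia by the same measure, the last 2 of which encode inhibitors in the NF-κB pathway. Nfkbia averaged 197 ± 13.9 CPM (SD, n = 3) in WT, 130.3 ± 4.6 CPM in Hoil ΔCd4 mice and 119 ± 9.4 CPM in Sharpin cpdm mice at the earlier stage. For all 3 genes every WT sample lay above every mutant sample at that stage. The closest genes to Mcl1 on the same scale were Ptpn13, Tob1 and Fam110b, and Ptpn13 averaged 28.4, 23.9 and 6.68 CPM at the earlier stage in WT, Hoil ΔCd4 and Sharpin cpdm mice. Relative to the mean of the fraction, all 6 Sharpin cpdm samples lay below the other 12 for Mcl1 and these 3 genes, and all 6 WT samples lay above the other 12 for Nfkb1, Tnfaip3 and Nfkbia, so no pooled coefficient is given on this scale. The points come from 6 groups and 9 mice and share libraries, so the coefficients and the order of likeness are descriptions and were not tested. For Mcl1 and Pmaip1 all 6 Sharpin cpdm samples stood apart from the other 12, with less Mcl1 and more Pmaip1 than the mean of their fraction.

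**Figure D5:**
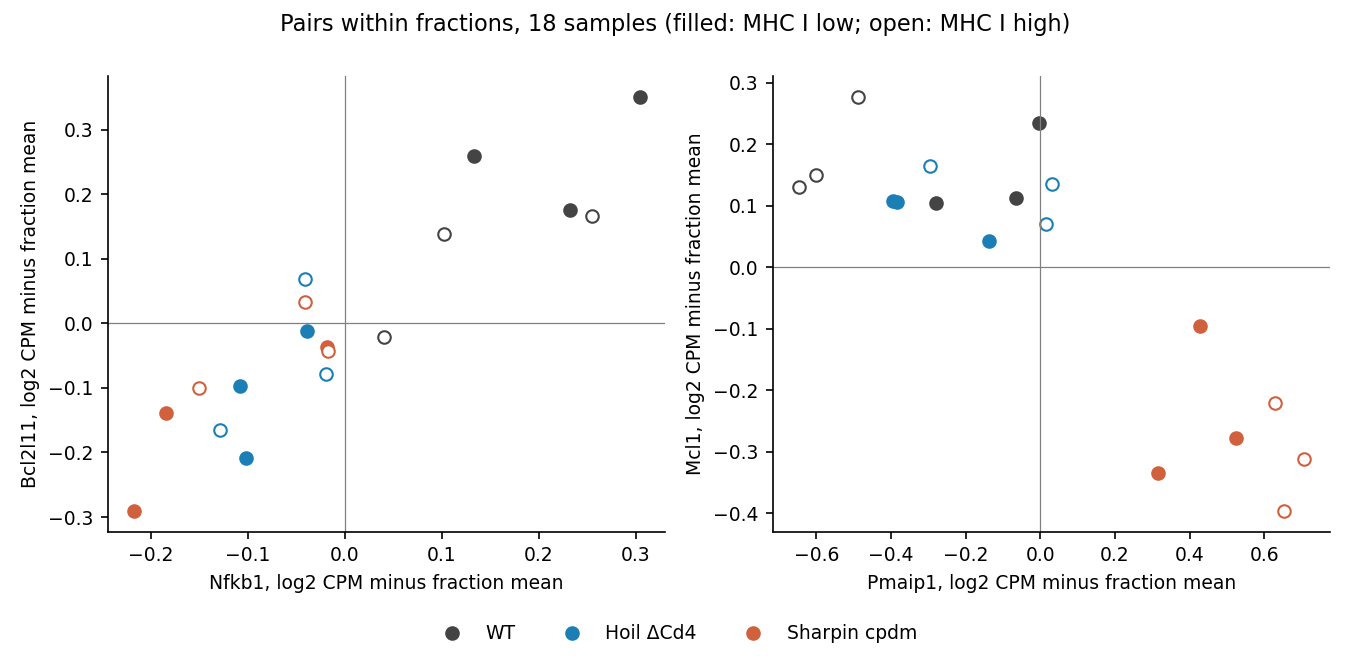
Log2 CPM of Bcl2l11 (y) against Nfkb1 (x) on the left and of Mcl1 (y) against Pmaip1 (x) on the right, each less the mean of its fraction, over 18 samples; filled points are MHC I low and open points MHC I high cells, and colours mark the genotype. The WT samples of MHC I low cells lie at the upper right of the left panel, and the 6 Sharpin cpdm samples lie at the lower right of the right panel, apart from the other 12.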

How the data were processed

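Sorted thymocyte RNA was sequenced as single-end reads from TruSeq libraries. The deposited files hold raw gene counts. The authors aligned reads with subread to mm10 and counted them with featureCounts and its inbuilt RefSeq annotation; versions and the settings for strand and multi-mapping reads were not given in the sources used here. Symbols, positions and promoter windows came from RefSeq (GRCm38.p6), which matched 25275 of 27179 GeneIDs; the 1904 others held 0.655% of counts.

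Following the study's methods, genes with at least 0.5 CPM in 3 or more samples were kept, genes of chromosome Y, Xist, predicted genes and genes without a symbol were removed, and 12798 remained. Counts were scaled by TMM (factors 0.9873 to 1.015, edgeR 4.0.16) and turned into log2 CPM with a prior count of 1. limma 3.58.1 in R 4.3.3 fitted the 6 groups with sample weights (0.6282 to 2.423), mouse as a random block (correlation 0.224), and moderated statistics with abundance trend and robust estimation. p values were adjusted by Benjamini-Hochberg over all 12798 genes. The printed CPM are counts over TMM-scaled library totals, with no prior count. Intervals are 95%. The script was tested on simulated data.

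The labels name the mouse of each sample, so the 2 fractions of a mouse are paired: after subtracting group means they correlated with r = 0.0702 to 0.256, above 0.1 in 8 of 9 mice. Mouse numbers were not taken to pair genotypes. Samples with the same number in 2 genotypes correlated with r = -0.0314 to 0.153, above 0.1 in 2 of 18 pairs, both of WT with Hoil ΔCd4 MHC I high samples. These ranges overlap, so a batch shared by number cannot be told from them. No 2 replicates agreed within sampling noise (chi-square per degree of freedom 3.95 to 14.1).

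In all, 22 alternatives were run: edgeR's quasi-likelihood test, DESeq2 1.42.0, other scaling, filters, prior count, weights, blocks, samples in the fit, Xist as a covariate, and each of 9 mice left out. Named were the 10 members, the called genes with the smallest adjusted p (at most 5) of 3 lists (15 other family members, 16 apoptosis genes, 22 regulators), and Rbck1, Sharpin, H2-K1, Cd69 and some marker genes as checks. The 3 genes most like each member were found for all 10. Only those of Bcl2l11, and those of Mcl1 after subtracting fraction means, are reported. Members and lists were chosen with earlier results of these data known. Some results of the apoptosis list are not reported here. Acoxl, Gpr137 and Ggnbp1 are named as overlapping genes.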

Additional observations from a re-analysis of the deposited data

Results flagged for a closer look

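The change between the MHC I fractions differed between Sharpin cpdm and WT mice for 2 of the 10 transcripts, by a test of the difference itself. For Bcl2 the Sharpin cpdm change less the WT change was -0.26 on the log2 scale (limma adjusted p = 0.021), and for Bcl2l11 it was 0.27 (adjusted p = 0.0418). Both differences kept their sign in all 22 alternatives, in which the Bcl2 difference was called 12 times and that of Bcl2l11 10 times. Proliferation markers also changed more in Sharpin cpdm mice, with 3 of 4 called and a median difference of 1.12, as did double-positive markers, with 4 of 6 called and a median difference of 0.75. Of the 8 T-cell markers 1 rose more, Cd8a (0.44, limma adjusted p = 0.00399), and 1 rose less, Cd3e (-0.29, adjusted p = 0.00996). The part of all these markers in the 2 differences was not tested. No group held enough mice for a search for single aberrant samples.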

How the results depend on the processing

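Of 2360 values of the members over 22 alternatives, 2270 stayed on the same side of the threshold, 69 lost a call, 21 gained one and 0 reversed as a call. Another 67 values called in neither analysis changed sign. The Sharpin cpdm interaction depended most on the settings: it had 2 called members in the main analysis, 0 by edgeR's quasi-likelihood test, by DESeq2, without a filter on low counts, without sample weights, without the replicate block and with mouse number as a block, 1 with Xist as a covariate, and 0 to 2 on leaving out a mouse. Hoil ΔCd4 MHC I high cells had 1 called member, Bcl2, in place of 0 by DESeq2, with scaling by library size only and with mouse number as a block. Leaving out a mouse gave 1 to 3 called members in place of 3 between the mutants in MHC I low cells, 2 to 5 in place of 3 in MHC I high cells, and 2 to 6 in place of 5 between the fractions of Hoil ΔCd4 mice. Without the replicate block, the Bad call between the WT fractions (adjusted p = 0.0553) and both interaction calls were lost, and no other member call changed. With mouse number as a block, Bbc3 (0.0256) and Bcl2l1 (0.0312) gained a call between the mutants, and Pmaip1 lost that between the Sharpin cpdm fractions (0.0636) and Bad that between the WT fractions (0.106). The cause of these changes was not tested, except that leaving out mice leaves fewer samples.

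Over all genes, counts moved by more than 1.5 times in the genotype comparisons and interactions: 62 to 222 around 126 for Hoil ΔCd4 and 134 to 1219 around 851 in the low and high fractions, 818 to 1728 around 1565 and 238 to 1366 around 1103 for Sharpin cpdm, 707 to 1637 around 1213 and 324 to 1154 around 861 between the mutants, and 0 to 77 around 51 and 30 to 634 around 400 for the interactions. Without WT mouse 3, 134 and 238 genes were called in the MHC I high comparisons of Hoil ΔCd4 and Sharpin cpdm with WT. Pmaip1, with 15 to 63 reads per sample, had the widest errors.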

Other observations

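The surroundings of Mcl1 held a larger share of called genes in Sharpin cpdm cells than all tested genes did, a difference that was not tested. Of 86 tested genes within 2 Mb of Mcl1, 14 (16.3%) were called against WT in MHC I low cells, where 12.2% of all genes were, and 18 (20.9%) in MHC I high cells, where 8.62% were. In Hoil ΔCd4 cells 1 (1.16%) and 5 (5.81%) of the same 86 were called, where 0.985% and 6.65% of all genes were. Around the other 9 members the shares in Sharpin cpdm cells ran from 4.88% (4 of 82, Bak1) to 17.7% (22 of 124, Bad) in the low fraction and from 0 of 8 (Bcl2) to 9.68% (3 of 31, Bid) in the high fraction. The residual strain background of these mice and the genotype cannot be told apart here.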
